A study of Homo sapiens with 7 samples.

Results

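The 8 genes described here code for transcription factors of the intestinal epithelium, namely CDX1, CDX2, HNF4A, HNF4G, GATA4, GATA6, KLF5 and ELF3. They were taken by gene symbol from the non-control spots of the arrays, where they made up 8 of 36337 gene names and were covered by 14 probes of 60 bases. The parent study compared transcription in human cells with extra chromosomes against cells under stress, and bafilomycin A1, an inhibitor of the vacuolar proton pump, was 1 of the stressors. The cells were HCT116, a near-diploid human colon carcinoma line, in a derivative carrying histone H2B fused to GFP and labelled as diploid.

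Of 7 samples of this line, the 4 treated with bafilomycin A1 at 10 nM for 30 h were measured here. Each of them was a biological replicate on a single-colour Agilent array, labelled from 100 ng of total RNA. The 3 untreated samples were not analysed here, so every value below is a level or a spread within the treated group, and no change upon treatment, no fold over untreated cells and no p-value was computed. All 7 samples share the line, the H2B-GFP transgene and, per the labels, medium with 10% serum, while the methods of the study name a lower serum share.

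These factors belong to several protein families that act together in the gut. CDX1 and CDX2 are caudal-type homeobox proteins that specify the intestine along the gut tube, and CDX2 keeps adult epithelium intestinal. HNF4A and HNF4G are nuclear receptors that drive genes of absorptive enterocytes. GATA4 and GATA6 are zinc finger factors of endoderm, with GATA4 acting mainly in the proximal small intestine. KLF5 is a Krüppel-like factor of dividing crypt cells, and ELF3 is an epithelial ETS factor needed for enterocyte and goblet cell maturation. Because RNA came from whole cultures, fewer cells of a type and less RNA per cell cannot be told apart.

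An array reads a gene only through the stretch of RNA that its probe matches, so the probe is part of each result. The first 30 bases of 7 probes are given as deposited, 5′ to 3′, with their GRCh37 (hg19) position and strand. They were chosen as both CDX1 probes, which gave different readings of 1 gene, the HNF4A probe, which was not detected, and the probes of CDX2, GATA6, KLF5 and ELF3, each the only probe of its gene and detected on all arrays. No base is set in capitals, since no part of a probe is singled out. The 2 CDX1 probes start 243 bases apart on chromosome 5, at chr5:149563184-149563213 and chr5:149563427-149563456 on the plus strand. The CDX2 stretch lies at chr13:28536332-28536361 on the minus strand, and those of GATA6 at chr18:19781793-19781822, KLF5 at chr13:73650979-73651008 and ELF3 at chr1:201984429-201984458 all lie on the plus strand. The HNF4A probe is assigned to chr20:43036102-43042379 on the plus strand, a genomic interval of 6278 bases for 60 probe bases, so it crosses at least 1 splice junction. Exon and UTR boundaries of this build were not used here.
CDX1 probe A_33_P3289848: aacaccagcctcctggccacctcctctcca
CDX1 probe A_23_P58788: ttccagctcctgtgttctagacctctgggg
CDX2 probe A_33_P3304501: gtgatatggtgaagggaagtggggagtatt
HNF4A probe A_23_P28761: catgaagaaggaagccgtccagaatgagcg
GATA6 probe A_23_P304450: ggtatctgtaaacactctgatgaagtctgt
KLF5 probe A_23_P53891: cgttgaattgatgatgcagttttcatatat
ELF3 probe A_23_P104188: aggttctccagagtcggaactgagggttgg

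6 of the 8 factors were detected on all 4 arrays, and both HNF4 receptors were detected on none. Detection meant that the scanner software had marked 1 or more probes of the gene as well above background on every array, and 52.5% of all gene names met that rule. CDX1, CDX2, GATA4, GATA6, KLF5 and ELF3 met it. Of the 14 probes, 6 were well above background on all 4 arrays, 1 for each of these genes, 2 were so on some arrays and 6 on none. Each probe was printed as 1 spot, and none of those spots carried an outlier flag. On each array the flag followed a fixed limit, since the weakest marked signals were 21.5, 21.5, 20.8 and 22.3 intensity units in replicates 1 to 4 and the strongest unmarked signals had practically the same values. Levels of different probes are not compared, because probes differ in how strongly they bind their target.

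**Figure D1:**
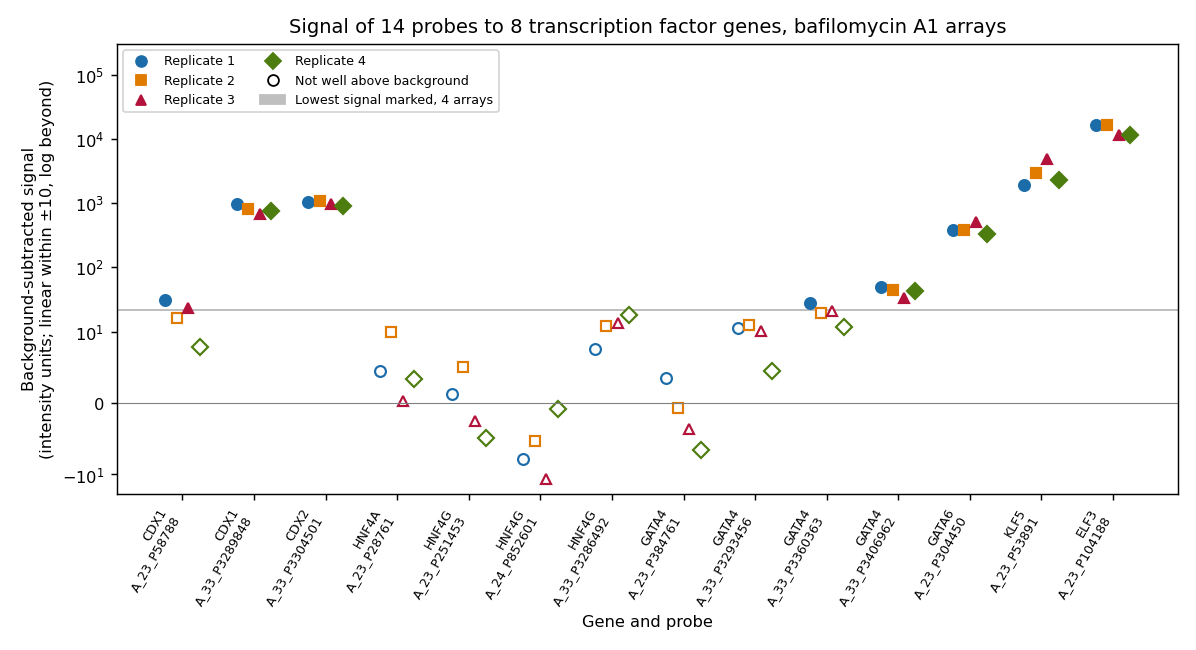
Background-subtracted signal in intensity units (y axis linear near 0 and logarithmic beyond) of the 14 probes, 1 point for each of the 4 bafilomycin A1 arrays, with open symbols where a spot was not well above background and a grey band at the lowest marked signals of 20.8 to 22.3. All points of the HNF4A probe and of the 3 HNF4G probes are open and lie below the band, while GATA4 has 1 of 4 probes with 4 filled points, between 33.4 and 49.5.

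The 4 arrays were not equally alike. Between 55.6% and 60.4% of spots were well above background, and 0 spots were saturated. Replicate 3 had 2249 outlier spots against 514 to 725 on the others, and 48.5% of the 19083 detected genes were highest there, with a median deviation of 0.10 from the 4-array mean on the log2 scale. SDs and spans that replicate 3 moves by more than 1.5 times are given with and without it. Normalized levels below are log2 background-subtracted signals minus the median of the array, so a value of 0 is the median of the probes with a positive signal. On each array 14.8% to 17.4% of spots read 0 or less, and counting them as the lowest probes raised every level (CDX2 from 3.84 to 4.92).

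The CDX genes were both detected, and CDX2 had the smallest SD of the 6 over the 4 arrays. The CDX2 signal was 1058, 1092, 970 and 893 intensity units in replicates 1 to 4, which is 40.0 to 50.9 times the detection limit. The normalized log2 levels were 3.78, 3.96, 3.79 and 3.82, a mean of 3.84 ± 0.09 (SD, n = 4), and the highest array exceeded the lowest 1.13-fold. No array stood out for CDX2, and 93.7% of detected genes had an SD at least as large. Without replicate 3 the SD was 0.10, above the 0.05, 0.07 and 0.08 of the detected GATA4, CDX1 and GATA6 probes, so that place depended on the array. After normexp and quantile normalization the GATA4 gene summary had an SD of 0.05 against 0.12 for CDX2. That summary rests mostly on probes below the limit, so no rank is read from it. The detected GATA4 probe was not examined under that processing. All these SDs lay below the median of 0.18 between spots of 1 probe, so small differences among them are not interpreted.

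CDX1 was read differently by its 2 probes. The probe at position 834 of the transcript gave 967, 803, 689 and 763 intensity units and was well above background on all arrays. The probe at position 1077 gave 31.0, 16.2, 23.2 and 7.83 intensity units, and passed the limit in replicates 1 and 3. On the detected probe the normalized log2 levels were 3.65, 3.52, 3.29 and 3.59, with a mean of 3.51 ± 0.15 (SD, n = 4), replicate 3 being the lowest. Its arrays spanned 1.28-fold, and 1.10-fold without replicate 3, where the SD was 0.07. The median over both probes, which is the gene summary of the study's methods, gave 0.75 ± 0.37 (SD, n = 4) and a span of 1.85-fold, with replicate 1 highest and replicate 4 lowest. The summary includes the dim probe, which was not well above background in replicates 2 and 4, so its span rests in part on signals below the limit. Neither the reason for the gap between the probes nor a match of the second probe to other transcripts was tested.

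The nuclear receptors HNF4A and HNF4G gave no signal well above background. The single HNF4A probe read 4.43, 9.95, 0.287 and 3.31 intensity units, at most 0.464 of the limit of its array. These values have no usable order, since replicate 3 is close to 0 and all are below the limit. HNF4G had 3 probes. The first, A_23_P251453, read 1.34, 5.08, -2.50 and -4.94 intensity units, and A_24_P852601 was below 0 on every array, between -12.0 and -0.777. The third, A_33_P3286492, read 7.51, 12.3, 13.5 and 18.4 intensity units, between 0.348 and 0.825 of the limit. It was marked positive and significant by the software on all 4 arrays, a weaker call than well above background, so HNF4G would count as detected under that call, which 65.4% of gene names pass. For HNF4A the same call was not met on all arrays. As HNF4A was read by 1 probe, its non-detection does not show that HNF4A RNA was absent. The HNF4G probes lie at chr8:76402375-76402434, chr8:76476404-76476463 and chr8:76477998-76478057 of GRCh37 on the plus strand.

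The GATA factors were both detected, GATA4 through 1 of 4 probes and close to the limit. The detected GATA4 probe, A_33_P3406962 at chr8:11558173-11558232 on the plus strand of GRCh37, gave 49.5, 45.0, 33.4 and 43.1 intensity units, 1.61 to 2.30 times the limit. The other three GATA4 probes lie further 3′ on the gene. Of these, A_33_P3360363 at chr8:11616543-11616602 gave 28.0, 19.3, 20.8 and 11.7 intensity units and passed the limit in replicate 1. The other two passed it on no array, with A_33_P3293456 between 4.55 and 12.7 and A_23_P384761 between -6.59 and 3.45 intensity units. GATA4 detection thus rested on the most 5′ of its probes. On that probe the normalized log2 levels were -0.64, -0.64, -1.07 and -0.56, a mean of -0.73 ± 0.23 (SD, n = 4). Replicate 3 was the low array, at 0.727 of the mean of the others, and without it the SD was 0.05. The median over the GATA4 probes with a positive signal gave -2.04 ± 0.30 (SD, n = 4). That summary lies below the limit and takes a probe in replicate 1 that has no value on the other arrays, so no order of the arrays is read from it.

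GATA6 was read by 1 probe, with 378, 385, 513 and 337 intensity units in replicates 1 to 4, or 15.1 to 24.7 times the limit. Its normalized log2 levels were 2.29, 2.46, 2.87 and 2.41, a mean of 2.51 ± 0.25 (SD, n = 4). Replicate 3 was the high array, 1.49-fold over replicate 1, and the other three spanned 1.12-fold with an SD of 0.08.

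KLF5 had the widest spread of the 6 detected factors over the 4 arrays. Its probe gave 1938, 2917, 4868 and 2295 intensity units, 89.9 to 234 times the limit, so every array read it far above the limit. The normalized log2 levels were 4.65, 5.38, 6.12 and 5.18, a mean of 5.33 ± 0.61 (SD, n = 4). Replicate 3 was highest, 2.06-fold over the mean of the others, replicate 1 was lowest, and replicates 2 and 4 lay between them. The highest array exceeded the lowest 2.76-fold, and 1.65-fold without replicate 3, where the SD was 0.37. On the detected probes it stayed the widest without replicate 3, whereas by gene summary CDX1 was then wider, with an SD of 0.44 and a span of 1.85-fold. Among the 19083 detected genes, 7.92% had an SD at least as large, and among the 12407 of them read by 1 probe, 1.81% did. Replicate 3 was the highest and replicate 1 the lowest array for KLF5 under each of the 4 scalings that were tried, with spans of 2.27-fold to 3.01-fold. The 4 were the reported one, processed signals centred on the 75th percentile, normexp with quantile normalization, and centring on the median over all probes.

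For ELF3, in contrast, replicate 3 was the lowest array. The ELF3 probe gave 16501, 16481, 11353 and 11553 intensity units, and the normalized log2 levels were 7.74, 7.88, 7.34 and 7.51, a mean of 7.62 ± 0.24 (SD, n = 4). Replicates 1 and 2 were the higher pair, and replicate 3 stood at 0.773 of the mean of the others. The arrays spanned 1.45-fold, and 1.29-fold without replicate 3. Replicate 2 was highest and replicate 3 lowest for ELF3 under the same 4 scalings, as replicate 3 was highest and replicate 1 lowest for GATA6. For CDX2 the highest or lowest array changed with the scaling. It also changed for CDX1 and GATA4 by gene summary, which for both rests in part on probes below the limit. The order of the arrays on the detected CDX1 and GATA4 probes was not examined under the other scalings.

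**Figure D2:**
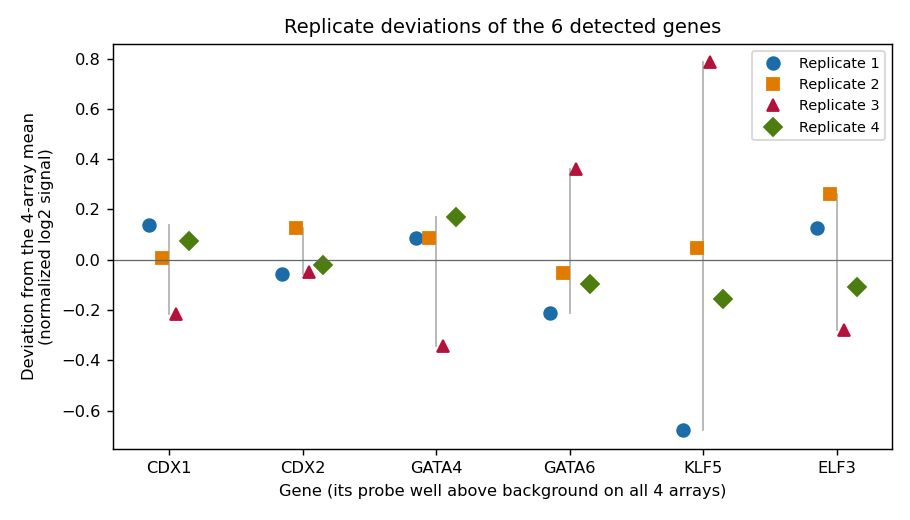
Deviation of each of the 4 bafilomycin A1 arrays from the 4-array mean of the normalized log2 signal, for the probe of each detected factor that was well above background on all arrays; grey lines join the lowest and highest array. Replicate 3 is the highest array for GATA6 (0.36) and KLF5 (0.78) and the lowest for CDX1 (-0.22), GATA4 (-0.34) and ELF3 (-0.28).

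Replicate 3 therefore deviated in both directions within these factors. On the detected probes it was the highest array for 2 of the 6 and the lowest for 3 of the 6. By gene summary it was the highest array for GATA6 and KLF5 and the lowest for ELF3. GATA4 was also highest there by gene summary, but on signals below the limit. Of all detected genes, likewise by gene summary, 48.5% were highest and 23.2% lowest in replicate 3. With 6 genes in 4 arrays of 1 group these counts are a description. On the detected probes, the deviations of CDX1 (-0.22) and ELF3 (-0.28) exceeded the median SD between spots of 0.18. They stayed within its 95th percentile of 0.29, whereas GATA4 (-0.34), GATA6 (0.36) and KLF5 (0.78) lay beyond it. Whether the deviation came from the culture, the RNA, the array or the single spot was not tested.

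By gene summary, 5 of the 6 detected factors spanned more than 1.4-fold between arrays, the fold that the study's methods use to call a gene changed, against 46.4% of all detected genes. CDX2 was the exception. On the detected probes alone 4 of the 6 did so, against 40.1% of all detected genes, since CDX1 then spanned 1.28-fold. Without replicate 3 the summary count was 3 (CDX1, GATA4 and KLF5), against 21.6% of all detected genes, and on the detected probes it was 1 (KLF5), against 14.5%. The summary values of CDX1 and GATA4 rest on probes below the limit. The median SD of the 6 was 0.28 by gene summary, beside 0.21 for all detected genes, and 0.24 on the detected probes, beside 0.19. On the detected probes without replicate 3 the median SD of all detected genes was 0.13. The SDs of GATA4 (0.05), CDX1 (0.07), GATA6 (0.08) and CDX2 (0.10) then lay below it. Those of ELF3 (0.19) and KLF5 (0.37) lay above it. By the ratio of the largest gap to the range, 0 of the 6 gene summaries had 1 array apart from the rest, where 8.48% of detected genes had.

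**Figure D3:**
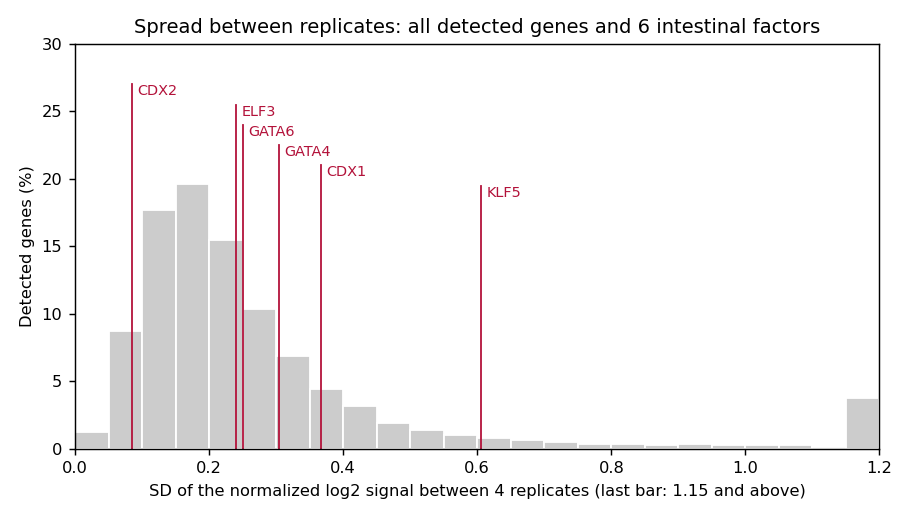
Share of the 19083 detected genes (%) by the SD of their normalized log2 level between the 4 arrays, with a line at the SD of each of the 6 detected factors by gene summary. CDX2 lies at the narrow end (0.09) and KLF5 in the upper tail (0.61), with ELF3, GATA6, GATA4 and CDX1 between 0.24 and 0.37.

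Of 23 other transcription factors of intestine and endoderm, 13 were detected on all 4 arrays, 2 on some and 8 on none, beside 52.5% of all gene names on all arrays. SOX9, a factor of crypt stem and progenitor cells, had normalized log2 levels of 3.69, 4.12, 4.68 and 4.08, a mean of 4.14 ± 0.41 (SD, n = 4), and an SD of 0.24 without replicate 3. As for GATA6 and KLF5, replicate 3 was its highest and replicate 1 its lowest array. The detected probe of FOXA1, a forkhead factor that opens endodermal chromatin, read 1.34 ± 0.27 (SD, n = 4), again highest in replicate 3 and with an SD of 0.14 without it. FOXA2, the related forkhead factor, and ASCL2, a factor of intestinal stem cells, were detected on no array, with highest signals of 5.31 and 15.5 intensity units. ATOH1, ISX, PROX1, NEUROD1, PDX1 and SOX2 were likewise detected on none. KLF4 and NR5A2 were detected on some arrays. Those detected on all arrays also included FOXA3, SPDEF, HES1, EHF, VDR, TCF7L2, GFI1 and NEUROG3.

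Among 10 paralogs of the 8 factors, 5 were detected on all arrays (GATA2, KLF6, ELF1, ELF5 and EHF), 2 on some (GATA3 and KLF4) and 3 on none, beside 52.5% of all gene names on all arrays. The 3 were CDX4, the remaining caudal-type gene, GATA1 of blood, and GATA5, the third endodermal GATA factor. The highest signal was 9.47 intensity units for CDX4 and -0.66 for GATA5.

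Genes of the differentiated intestine were mostly not detected on every array. Of 24 intestinal differentiation genes, 8 were detected on all arrays, 3 on some and 13 on none, and of 8 general epithelial markers all 8 were detected on all arrays, beside 52.5% of all gene names on all arrays and 35.5% on none. LGALS4, a galectin of enterocytes, read -0.61 ± 0.20 and MUC2, the goblet cell mucin, 1.53 ± 0.07 by gene summary (SD, n = 4). Of the 4 MUC2 probes, 2 were well above background on all arrays and gave 1.85 ± 0.07 (SD, n = 4), and 1 was so on no array. KRT20, a keratin of mature colonocytes, read -0.66, 0.32, 0.51 and -0.67, so replicates 2 and 3 formed a high pair, and the SD was 0.63. CDH17, an intestinal cadherin and CDX2 target, and VIL1, the brush border protein villin, were detected on no array. The same was true of SI, the sucrase-isomaltase, of FABP1, a fatty acid binding protein, and of APOB, the apolipoprotein of chylomicrons. Their highest signals lay between -1.18 (CDH17) and 9.65 (APOB) intensity units. ALPI, intestinal alkaline phosphatase, was detected on 3 arrays. Its normalized log2 levels were -0.58, -0.98, -0.94 and -1.70, with the value of replicate 4 below the limit. EPCAM and KRT8 of the epithelial list read 8.84 ± 0.15 and 5.39 ± 0.06 (SD, n = 4), and the SD of EPCAM was 0.07 without replicate 3. The median SD of the detected genes was 0.27 for the 23 transcription factors, 0.26 for the differentiation genes and 0.07 for the epithelial genes, beside 0.21 for all detected genes.

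For the label of a colon carcinoma line, all 8 epithelial markers, 13 of 23 intestinal and endodermal transcription factors and 8 of 24 intestinal differentiation genes were detected. Since 52.5% of all gene names pass the same rule, detection alone does not establish a cell type. Of markers of other cell types, 2 of 6 hepatocyte genes (SERPINA1 and TAT), 4 of 6 stomach genes (TFF1, TFF2, MUC5AC and MUC6), 0 of 4 squamous genes, 1 of 5 stroma genes (COL1A1) and 4 of 5 blood genes (PTPRC, CD3E, SPI1 and CD68) were detected on all arrays. The 4 blood genes had highest signals of 63.5 to 190 intensity units, and PTPRC was detected through 1 of its 5 probes. ALB and TTR of hepatocytes, GKN1 and GKN2 of stomach, and COL3A1 and LUM of stroma were detected on no array. Whether RNA of other cells or binding of other transcripts had a part in these signals was not tested.

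**Figure D4:**
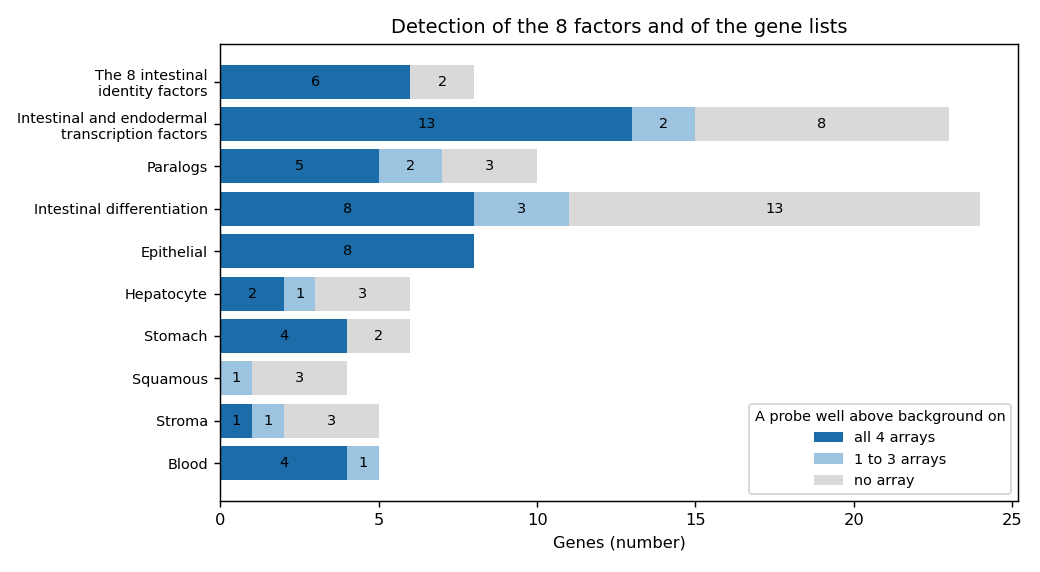
Number of genes with at least 1 probe well above background on all 4 arrays, on 1 to 3 arrays or on no array, for the 8 factors and 9 gene lists. The factors have 6 on all arrays and 2 on none, and among the lists the epithelial genes are detected on all arrays in 8 of 8 and the intestinal differentiation genes in 8 of 24.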

How the data were processed

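RNA of 4 bafilomycin A1 samples was hybridized to single-colour (Cy3) Agilent arrays. The 3 untreated samples were not analysed here. The authors deposited 1 scanner file per array, from Agilent Feature Extraction 10.7.3.1, with background-subtracted intensity values on a linear scale and spot flags, not normalized between arrays. The files place the probes on GRCh37.

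Control spots and spots with outlier flags were removed, and repeat spots were averaged per probe. As in the study's methods, signals were log2 transformed, the array median was subtracted and probes were summarized per gene by their median. A signal of 0 or less gave no value. A probe was detected on an array when over 50% of its spots were well above background, and a gene when 1 probe was detected on every array. Spread was described by the SD, the ratio of the highest to the lowest array and Dixon's ratio of gap to range (critical value 0.829). Dixon's ratio served only to mark values for a closer look. The design held 1 group, so no test between groups was run, and the number of arrays limits the precision. The functions were tested on simulated data.

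The 8 genes and the gene lists were chosen with earlier results of these data known. Values are given for all 8 genes with every probe and, whatever they were, for named genes of the lists, whereas other list genes are given by detection class. Some list genes are counted but not reported here by name. In alternative runs, the 75th percentile served to centre processed signals, normexp (offset 50) was followed by quantile normalization, detection rules, probe sets and centring were varied, outlier spots were kept, arrays were summarized by the median, and each array was left out. Python 3.11.15, numpy 2.4.6, pandas 2.3.3, scipy 1.17.1, matplotlib 3.10.9, R 4.3.3 and limma 3.58.1 were used.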

Additional observations from a re-analysis of the deposited data

Results flagged for a closer look

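The detected GATA4 probe, A_33_P3406962, had replicate 3 below the other arrays, with a gap to the nearest array of 0.843 of the whole range (normalized log2 levels of -0.64, -0.64, -1.07 and -0.56). It was 1 of 28 values with 4 arrays that were examined, and chance alone marks about 1 in 20 such values. On probes well above background on all arrays, the same ratio marked 7.17% of all detected genes. The other arrays of this probe had an SD of 0.05, and the signal of replicate 3 was 33.4 intensity units, 1.61 times the limit of detection. Replicate 3 also had the most outlier spots of the 4 arrays (2249), and the part of the array in this value was not tested.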

How the results depend on the processing

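No paired analysis was possible because only 1 group was analysed. The number of the 8 factors detected on all arrays was 6 with any array left out. That count could not change, since the 6 passed on every array and HNF4A and HNF4G on none. It was 7 when a positive and significant signal sufficed (HNF4G added) and 4 when every probe of a gene had to pass (CDX2, GATA6, KLF5 and ELF3). The shares of all gene names in these settings were 52.7% to 54.1%, 65.4% and 43.4%. The number that spanned more than 1.4-fold was 5, but 2 after normexp and quantile normalization (KLF5 and ELF3), where the share of all detected genes was 15.5% instead of 46.4%, and 3 to 4 with an array left out (21.6% to 39.2% of all detected genes), the 3 being without replicate 3 or without replicate 4. With both only probes well above background on all arrays and replicate 3 left out, a setting chosen after seeing the data, it was 1 (KLF5). The number with 1 array apart was 0, and 1 (GATA4) with only probes well above background on all arrays, where 7.17% of all detected genes had 1 array apart. Of 45 alternatives for counts, 40 stayed within 1.5-fold of the reported value and 5 moved, and of 146 for single levels and spans 104 stayed and 42 moved, a level by more than its SD between arrays and a span by more than the SD of its values with 1 array left out. Some of these outcomes were fixed in advance. A gene with 1 detected probe keeps its values when probes are restricted, and a span stays when a middle array is left out. Centring on another value shifts every level (KLF5 from 5.33 to 6.42 over all probes). The tallies are thus no measure of stability. No comparison of the probes of 1 gene was possible under another scaling, since no factor had 2 probes detected on all 4 arrays. Signals below the limit of 20.8 to 22.3 intensity units carry no order, which covers HNF4A, HNF4G and most GATA4 probes, and 4 of the 6 detected factors rest on a single probe. Without untreated arrays none of the levels can be tied to bafilomycin A1.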
